A study of Rattus norvegicus with 9 samples.

Results

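The comparison described here sets cultured rat pinealocytes in which the homeobox gene Bsx was knocked down beside pinealocytes in which the homeobox gene Lhx4 was knocked down. It rests on the 6 of the 9 libraries of the study that carry a label for one of these knockdowns, and the genes were matched by name between the authors' table for each. All cultures came from pineal glands of adult Sprague-Dawley rats, dissociated with papain, and received a Stealth short interfering RNA (siRNA) at 40 nM with Lipofectamine RNAiMAX, with a change of medium 24 h later and harvest on the third day. The groups were siBsx, with 1 siRNA against Bsx (n = 3), siLhx4, with 1 siRNA against Lhx4 (n = 3), and siNT, with a non-targeting siRNA (n = 3), which is given beside them as the untargeted level. The labels call the libraries triplicates and do not say whether they came from separate animals or cultures. The spread behind the p-values may therefore be technical. With 1 siRNA per target, an effect of the siRNA sequence cannot be told apart from an effect of the lower target.

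Lhx4 is a LIM homeodomain transcription factor and Bsx is a homeodomain factor of the brain and pineal gland, and both bind DNA at short sites built on a TAAT core. Pinealocytes share their developmental origin with retinal photoreceptors, express many phototransduction and ribbon synapse genes, and at night make melatonin from tryptophan under noradrenergic control through cyclic AMP. A direct comparison of the knockdowns asks where the transcripts of the adult cell differ between the loss of one factor and the loss of the other.

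The levels below are group means of the authors' normalized counts (read counts scaled by each library's size factor), computed for each group from the mean and the fold change that the deposited tables list. Each difference is given on the log2 scale as siBsx minus siLhx4 with its standard error, and a gene was called at a Benjamini-Hochberg adjusted p under 0.05 in a Wald test rebuilt from both tables. The siNT libraries cancel from this difference. They enter its standard error, which uses the spread of each gene (dispersion) behind the authors' siBsx table. Values of single libraries were used for 14 genes in the siLhx4 and siNT groups. Single siBsx libraries were not analysed here, so the siBsx means carry no SD. Size factors of the siLhx4 and siNT libraries were inferred as the smallest scaling that made the normalized counts of all 14 genes whole numbers. They ran from 0.761 to 1.46 over the 3 siLhx4 libraries and from 0.972 to 1.26 over the 3 siNT libraries. With read counts inferred in this way, the 14 genes held 342743 to 724771 reads per library. The lowest of the 14 genes had 288 to 729 reads in these 6 libraries.

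Each target was lowest in its own knockdown. Lhx4 averaged 20782 normalized counts in siBsx, against 3534 in siLhx4 and 18814 in siNT. The siLhx4 libraries held 3419.7, 3634 and 3551 normalized counts of Lhx4, against 18963, 18330.5 and 19156 in the siNT libraries, so the siBsx mean lay far above every siLhx4 library and above the highest siNT library. The Lhx4 difference was 2.56 ± 0.050 (log2, SE). Bsx averaged 2447 normalized counts in siBsx, against 6529 in siLhx4 and 11837 in siNT, a difference of -1.42 ± 0.062 (log2, SE). The siLhx4 means of both transcripts lay below siNT, whereas the siBsx mean lay below siNT for Bsx only.

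Among 14876 genes tested, 3380 (22.7%) differed between siBsx and siLhx4, of which 1613 (10.8%) were higher and 1767 (11.9%) lower in siBsx. Most differences were small: among called genes the median absolute log2 difference was 0.39, which is 1.31-fold, and 85 higher (0.571%) and 152 lower genes (1.02%) differed at least 2-fold. The median difference over all tested genes was 0.0018. The count depends on the distribution to which the Wald statistic is referred: under a t distribution with 6 degrees of freedom in place of the normal one 1307 genes were called, and under one with 4 degrees of freedom 291, all of them among the 3380. In what follows, the t distribution is the one with 6 degrees of freedom unless 4 are named. The counts of called genes in each list below stand against the 22.7% called over all tested genes.

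**Figure D1:**
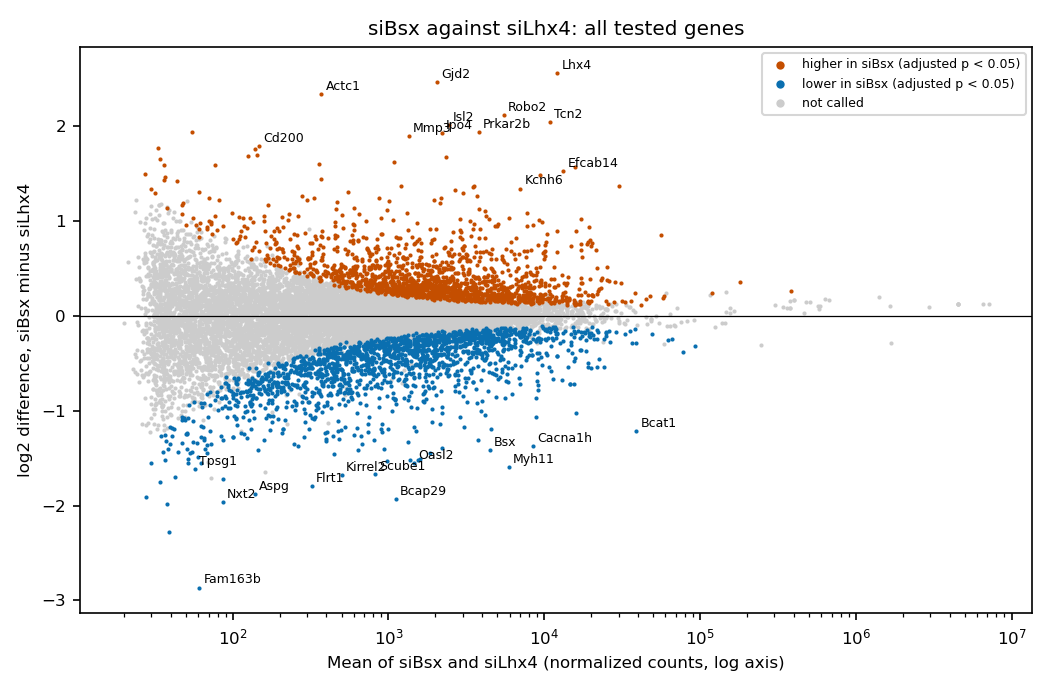
Each point is 1 of the 14876 tested genes, with the mean of siBsx and siLhx4 in normalized counts on a log axis and the log2 difference, siBsx minus siLhx4, on the vertical axis. Genes called higher in siBsx (1613, orange) and lower in siBsx (1767, blue) spread to both sides of 0, with Lhx4 and Gjd2 at the top and Fam163b at the bottom, and differences between highly expressed genes were called at smaller sizes than those between weakly expressed ones.

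The cultures also differed in markers of other cell types, and in bulk RNA fewer cells of a type and less RNA per cell cannot be told apart. The summed level of the 12 astrocyte markers listed (9 tested) was 12689 normalized counts in siBsx, 18746 in siLhx4 and 15003 in siNT. The 12 fibroblast markers (11 tested) summed to 5240 in siBsx, 8159 in siLhx4 and 6230 in siNT. The 8 mural cell markers (6 tested) summed to 3622, 9977 and 7119 in the same order. The myosin Myh11 alone held 2953, 8932 and 6198 of these counts. Of the others, Pdgfrb and Cspg4 were lower in siBsx, and Tagln, Notch3 and Des did not pass. Acta2 and Rgs5 were untested, with Acta2 at 13.7, 12.2 and 15.3. The 8 pinealocyte markers, with both targets among them, summed to 512916 in siBsx, 414077 in siLhx4 and 553858 in siNT. Tph1 alone held 415142, 348154 and 455476 of these counts, and the target Lhx4 held 20782, 3534 and 18814. The part of these shifts in the differences described next was not tested.

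Where a gene had a symbol and averaged at least 50 normalized counts, the largest differences upward after Lhx4 were those of a gap junction gene, a cardiac actin, an axon guidance receptor and a vitamin carrier. Gjd2, which encodes the neuronal gap junction protein connexin 36, averaged 3449 normalized counts in siBsx, against 627 in siLhx4 and 1140.0 in siNT. It was 5.5-fold higher in siBsx than in siLhx4 (2.46 ± 0.076, log2, SE; adjusted p = 1.43e-227). The cardiac α-actin gene Actc1, the next gene along the same chromosome, stood at 617 in siBsx, 123 in siLhx4 and 203 in siNT (2.33 ± 0.18, log2, SE). Robo2, a receptor for Slit guidance cues, averaged 8943 in siBsx, against 2067 in siLhx4 and 5439.6 in siNT (2.11 ± 0.081). Tcn2, the carrier of vitamin B12 in plasma, averaged 17529 in siBsx, against 4272 in siLhx4 and 6388 in siNT (2.04 ± 0.075). For these 4 genes siNT lay between the knockdowns, at least 0.5 on the log2 scale from each, with the siBsx mean above it and the siLhx4 mean below it.

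Other genes that were higher in siBsx lay close to the siNT level there. Ipo4, an importer of cargo into the nucleus, averaged 3476 normalized counts in siBsx, against 919 in siLhx4 and 3539 in siNT (1.92 ± 0.068, log2, SE). Mmp3, a matrix metalloproteinase, averaged 2128 in siBsx, against 575 in siLhx4 and 2592 in siNT (1.89 ± 0.11). Cd200, a surface glycoprotein that restrains myeloid cells, stood at 228 in siBsx, 66.1 in siLhx4 and 204 in siNT (1.78 ± 0.22). Prkar2b, a regulatory subunit of protein kinase A, and the LIM homeodomain factor Isl2 complete the 10 largest and are described with their groups.

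Of the 10 largest differences downward, Fam163b was the most extreme, at 14.8 normalized counts in siBsx, against 107 in siLhx4 and 65.0 in siNT (-2.86 ± 0.40, log2, SE; adjusted p = 2.46e-11). Bcap29, a membrane protein of the endoplasmic reticulum, averaged 462 in siBsx, against 1771 in siLhx4 and 1612 in siNT (-1.94 ± 0.10). Flrt1, an adhesion protein with leucine-rich repeats, averaged 143 in siBsx, against 498 in siLhx4 and 292 in siNT (-1.80 ± 0.16). In a second set of genes the siBsx level was near that of siNT and the siLhx4 level above both. Scube1, a secreted protein with EGF-like domains, averaged 388 in siBsx, against 1239 in siLhx4 and 434 in siNT (-1.67 ± 0.11). Kirrel2, an adhesion protein of the immunoglobulin superfamily, averaged 238 in siBsx, against 761 in siLhx4 and 289 in siNT (-1.68 ± 0.16).

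Myh11, the myosin heavy chain of smooth muscle, stood at 2953 normalized counts in siBsx, 8932 in siLhx4 and 6198 in siNT (-1.60 ± 0.074, log2, SE). The mRNA export cofactor Nxt2 averaged 35.1 in siBsx, against 137 in siLhx4 and 106 in siNT (-1.96 ± 0.31). The asparaginase gene Aspg averaged 59.5 in siBsx, against 218 in siLhx4 and 114 in siNT (-1.88 ± 0.26). Both had low counts and wide errors. The tryptase Tpsg1 (-1.62 ± 0.34) and the interferon-induced Oasl2 (-1.55 ± 0.43) close the set. The call of Oasl2 was lost under the t distribution (adjusted p = 0.0890), and with 4 degrees of freedom those of Cd200, Fam163b, Nxt2, Aspg and Tpsg1 were lost as well (adjusted p from 0.0557 to 0.120).

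**Figure D2:**
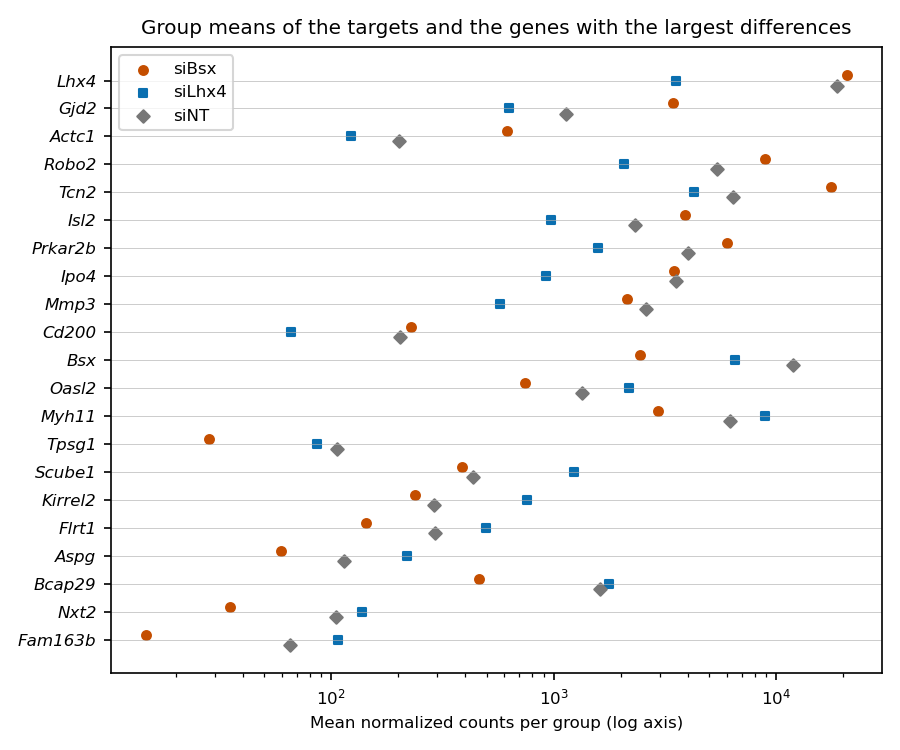
Group means in normalized counts (log axis) of Lhx4, Bsx and the genes with the largest differences in each direction, with siBsx as circles, siLhx4 as squares and siNT as diamonds. The siNT mean lies between the knockdowns, at least 0.5 (log2) from each, for Gjd2, Actc1, Robo2, Tcn2 and Fam163b. It does so too for Isl2, Prkar2b, Flrt1, Aspg, Myh11 and Oasl2. The siNT mean lies near siBsx for Ipo4, Scube1 and Kirrel2, and near siLhx4 for Bcap29.

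The smallest p-values after those genes belonged to well-expressed genes with differences of 2.33-fold to 2.87-fold. Efcab14, named for its EF-hand domain, averaged 19648 normalized counts in siBsx, against 6848 in siLhx4 and 10455 in siNT (1.52 ± 0.043, log2, SE; adjusted p = 2.79e-271). Kcnh6, a potassium channel of the ERG family, averaged 10064 in siBsx, against 3982 in siLhx4 and 6555 in siNT (1.34 ± 0.056). Both had their highest mean in siBsx. Bcat1, the cytosolic transaminase of branched-chain amino acids, averaged 23488 in siBsx, against 54634 in siLhx4 and 36585 in siNT (-1.22 ± 0.049).

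The promoters of 4 of these genes are printed because 2 of them, Gjd2 and Actc1, are neighbours with like differences, Isl2 is itself a homeodomain gene, and Efcab14 had the smallest p among those not chosen for size. Each is the 250 bases before the annotated start, 5′ to 3′ on the gene's strand, from RefSeq in the build GRCr8, whereas the authors' files use rn6. Capitals mark matches to TAATTA, to GGATTA or its complement TAATCC, and to TGACGTCA, the site bound by cyclic AMP response element binding proteins.
Gjd2, chr3:121229368-121229617, minus strand: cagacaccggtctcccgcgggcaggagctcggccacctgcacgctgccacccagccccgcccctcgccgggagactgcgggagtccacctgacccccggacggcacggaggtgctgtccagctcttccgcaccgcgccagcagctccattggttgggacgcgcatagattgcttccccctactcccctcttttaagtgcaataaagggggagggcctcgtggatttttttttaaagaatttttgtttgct
Actc1, chr3:121271828-121272077, minus strand: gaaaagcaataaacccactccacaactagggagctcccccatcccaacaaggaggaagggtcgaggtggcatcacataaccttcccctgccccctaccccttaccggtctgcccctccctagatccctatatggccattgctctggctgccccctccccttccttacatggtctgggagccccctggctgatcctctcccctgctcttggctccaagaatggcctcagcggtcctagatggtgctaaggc
Isl2, chr8:64819629-64819878, plus strand: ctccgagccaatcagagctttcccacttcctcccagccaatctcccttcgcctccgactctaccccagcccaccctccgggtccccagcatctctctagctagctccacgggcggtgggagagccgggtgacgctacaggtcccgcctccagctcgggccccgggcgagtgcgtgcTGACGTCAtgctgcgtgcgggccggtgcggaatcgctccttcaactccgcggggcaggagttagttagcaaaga
Efcab14, chr5:134455226-134455475, plus strand: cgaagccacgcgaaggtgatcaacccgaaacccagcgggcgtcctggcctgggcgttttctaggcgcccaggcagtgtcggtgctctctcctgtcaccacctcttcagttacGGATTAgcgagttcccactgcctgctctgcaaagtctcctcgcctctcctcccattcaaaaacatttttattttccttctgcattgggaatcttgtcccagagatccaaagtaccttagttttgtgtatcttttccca

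Gjd2, Actc1 and Isl2 hold no TAAT or ATTA in these windows, Isl2 holds 1 TGACGTCA, and Efcab14 holds 1 GGATTA, whose last 4 bases are an ATTA. Across the tested genes with a promoter in the table, on both strands, TAAT or ATTA occurred in 37.9% of 1164 promoters of genes higher in siBsx and in 32.9% of 1295 promoters of genes lower in siBsx, against 39.3% of all 9724. TAATTA, which contains that core on both strands, occurred in 1.29%, 1.85% and 1.88% of the same sets, and GGATTA in 5.84%, 4.40% and 4.93%. TGACGTCA occurred in 3.01%, 3.40% and 2.96%. These shares describe letters in short windows and were not tested.

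Among transcription factors of the pineal gland and retina, most called differences were higher in siBsx. Of 20 tested (of 32 listed), 8 were higher and 2 lower in siBsx, with a list median of 0.10 beside 0.0018 for all genes. Isl2 averaged 3903 normalized counts in siBsx, against 972 in siLhx4 and 2318 in siNT (2.01 ± 0.074, log2, SE; adjusted p = 1.40e-157). Neurod4, a proneural bHLH factor, averaged 43479.9 in siBsx, against 16846 in siLhx4 and 15987 in siNT (1.37 ± 0.069). The microphthalmia factor Mitf averaged 6549 in siBsx, against 3419 in siLhx4 and 7920.4 in siNT (0.94 ± 0.083). Neurod4 thus had its highest mean in siBsx, whereas Mitf had its lowest in siLhx4 and was nearer to siNT in siBsx.

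Rax, a homeobox gene of eye and pineal development, averaged 675 in siBsx, against 324 in siLhx4 and 484 in siNT (1.06 ± 0.13, log2, SE). Mef2c (0.66 ± 0.053), Neurod1 (0.37 ± 0.053), Mef2d (0.23 ± 0.049) and Ldb1, the partner that binds LIM domains (0.26 ± 0.080), were higher by smaller amounts. Pax6, a regulator of eye development, was lower in siBsx, at 507 normalized counts, against 740.1 in siLhx4 and 513 in siNT (-0.54 ± 0.11). Bcl11b, a zinc-finger repressor with a low count, was also lower (-1.20 ± 0.45; adjusted p = 0.0356). Crx, the homeodomain factor central to photoreceptor and pineal genes, averaged 18820.3 in siBsx, against 19912 in siLhx4 and 21531 in siNT. Its difference of -0.08 ± 0.045 did not pass (adjusted p = 0.196), with a 95% interval from -0.17 to 0.0061, and the LIM homeodomain genes Lhx3 (0.16 ± 0.31), Lhx9 (-0.34 ± 0.28) and Isl1 (-0.47 ± 0.55) did not pass either. The t distribution left 7 higher and 1 lower calls.

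**Figure D3:**
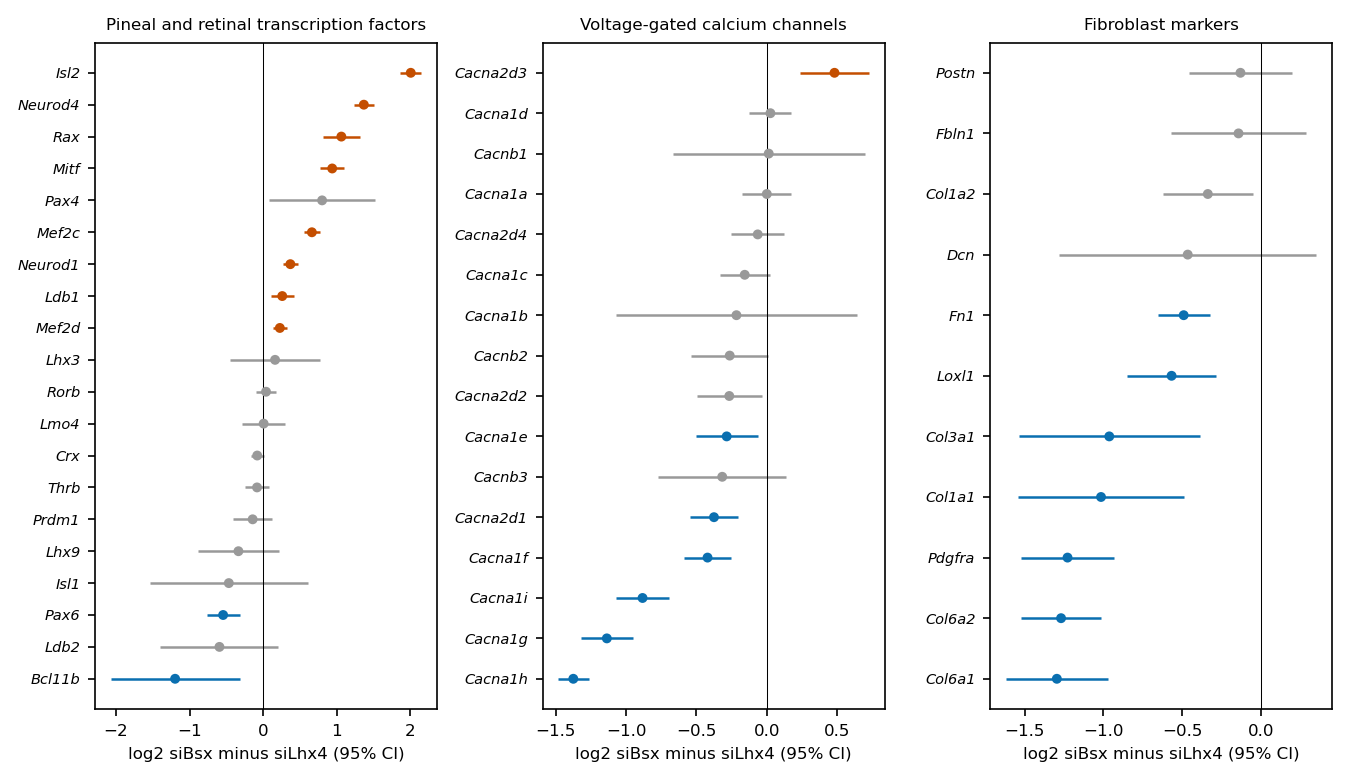
Log2 differences, siBsx minus siLhx4, with 95% intervals from the rebuilt Wald test for all tested members of 3 lists, colored where called (orange higher, blue lower in siBsx). Transcription factors range from Isl2 at 2.01 to Bcl11b at -1.20, calcium channels from Cacna2d3 at 0.48 to Cacna1h at -1.38, and every fibroblast marker has an estimate below 0.

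The enzymes that turn tryptophan into melatonin were all higher in siBsx than in siLhx4, by 1.19-fold to 1.42-fold. Tph1, the tryptophan hydroxylase that starts the pathway, averaged 415142 normalized counts in siBsx, against 335132, 352374 and 356969 in the siLhx4 libraries and 435248, 460953 and 470227 in the siNT libraries. The siBsx mean was above every siLhx4 library and below every siNT library (0.25 ± 0.041, log2, SE; adjusted p = 8.63e-09). Ddc, the aromatic amino acid decarboxylase, averaged 7916 in siBsx, against 5584 in siLhx4 and 7387 in siNT (0.50 ± 0.050). Aanat, the N-acetyltransferase that sets the nightly rhythm, averaged 15323 in siBsx, against 12707, 11733 and 12377 in the siLhx4 libraries and 19571, 18472 and 16916 in the siNT libraries (0.32 ± 0.058). Its siBsx mean also lay between the ranges of the other groups, which did not overlap.

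Asmt, the methyltransferase of the last step, averaged 11080.0 in siBsx, against 7759, 7931 and 7657 in the siLhx4 libraries and 10212, 9545 and 10329 in the siNT libraries (0.51 ± 0.049, log2, SE; adjusted p = 5.29e-23). Here the siBsx mean lay above every library of both other groups. Of the cofactor genes, Gch1, which starts tetrahydrobiopterin synthesis (0.29 ± 0.050), and Mat2a, which makes the methyl donor S-adenosylmethionine (0.23 ± 0.043), were higher. The amino acid transporter Slc7a5 was lower, at 2972 in siBsx, 3909 in siLhx4 and 4065 in siNT (-0.39 ± 0.063). Over the 15 tested members (of 16 listed), 6 were higher and 1 lower in siBsx, with a median of 0.06, and these 7 calls remained under the t distribution.

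Rod phototransduction genes differed in both directions. Of 27 tested (of 32 listed), 9 were higher and 6 lower in siBsx, with a median of 0.05. Sag, the arrestin that quenches activated rhodopsin, averaged 25522 in siBsx, against 13396 in siLhx4 and 14335 in siNT (0.93 ± 0.044, log2, SE; adjusted p = 1.09e-94). Guca1b, a calcium-dependent activator of guanylate cyclase, averaged 25681 in siBsx, against 17656, 18639.9 and 18199 in the siLhx4 libraries and 14237, 14865 and 14120.5 in the siNT libraries (0.50 ± 0.043). It stood highest in siBsx, intermediate in siLhx4 and lowest in siNT, and the siLhx4 and siNT libraries did not overlap.

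Pde6b, a catalytic subunit of the rod phosphodiesterase, averaged 3799.9 in siBsx, against 2444, 2386 and 2661 in the siLhx4 libraries and 3615, 3211 and 3733 in the siNT libraries (0.61 ± 0.068, log2, SE). Gucy2d, the membrane guanylate cyclase, averaged 653 in siBsx, against 418, 407 and 379.6 in the siLhx4 libraries and 855, 920.2 and 859 in the siNT libraries (0.70 ± 0.11). Recoverin (Rcvrn), the calcium sensor that inhibits rhodopsin kinase, averaged 577 in siBsx, against 334, 263 and 389 in the siLhx4 libraries and 518, 579.8 and 504 in the siNT libraries (0.82 ± 0.14). The siBsx mean lay above every siNT library for Pde6b, within them for Rcvrn and below them for Gucy2d.

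Other rod genes were lower in siBsx. The cation exchanger Slc24a1 averaged 1923 in siBsx, against 2639.9, 3210.1 and 2646 in the siLhx4 libraries and 3572, 3841 and 3528 in the siNT libraries (-0.56 ± 0.085, log2, SE). Cngb1, a subunit of the cyclic nucleotide-gated channel, averaged 4727 in siBsx, against 5932, 6165 and 6098 in the siLhx4 libraries and 8332, 7302 and 8641 in the siNT libraries (-0.36 ± 0.066). Both were highest in siNT and lowest in siBsx, with no overlap of the siLhx4 and siNT libraries. Aipl1, a chaperone of the phosphodiesterase, was lower too, at 16058 in siBsx, 20762 in siLhx4 and 20416 in siNT (-0.37 ± 0.052).

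Rhodopsin kinase (Grk1) was lower by a small margin, -0.16 ± 0.061 on the log2 scale (adjusted p = 0.0393), and its call was lost without siLhx4 replicate 2 (adjusted p = 0.130) or 3 (adjusted p = 0.0740). The calmodulin gene Calm3 was higher by 0.16 ± 0.055 (adjusted p = 0.0207), a call lost without siLhx4 replicate 1 (adjusted p = 0.0527) or 3 (adjusted p = 0.110). Over the 14 genes with values per library, a set that the authors chose, the siBsx mean was above all 3 siLhx4 libraries for 10, among them Lhx4, the target of that knockdown, and below all 3 for 3. The share of all tested genes with such a separation was not computed, since single libraries were used for these genes alone, and 22.7% of all tested genes were called. Under the t distribution, 6 higher and 3 lower rod calls remained.

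**Figure D4:**
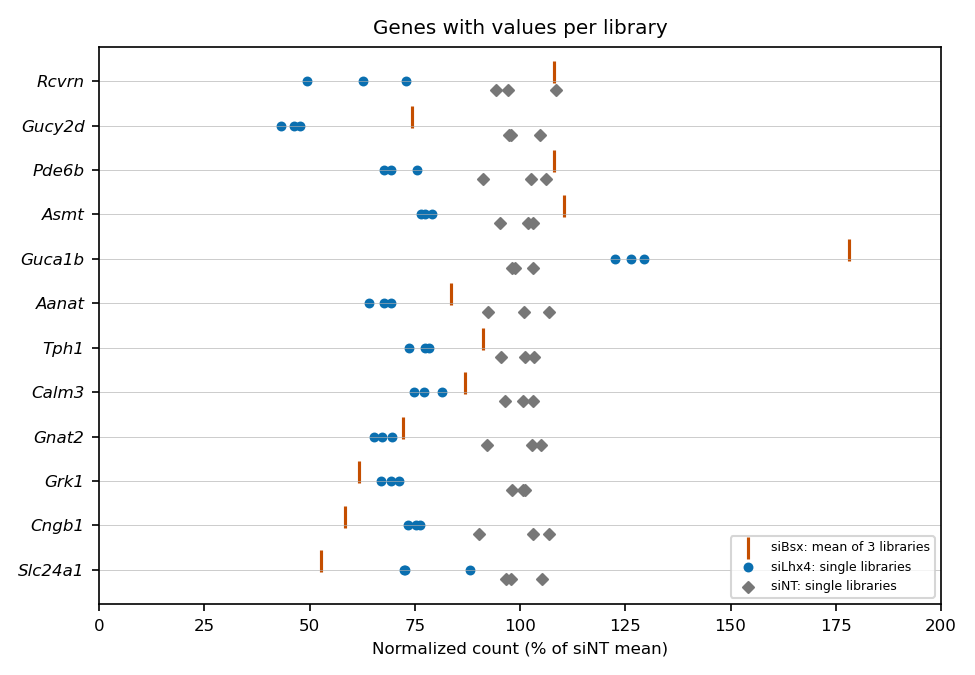
Normalized counts as a percentage of the siNT mean for genes with values per library (Lhx4, at 110% in siBsx and 18.8% in siLhx4, is left out), with the siBsx group mean as a bar, the 3 siLhx4 libraries as circles and the 3 siNT libraries as diamonds. The siBsx mean lies right of every siLhx4 library from Rcvrn down to Gnat2 and left of them for Grk1, Cngb1 and Slc24a1.

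Cone genes split as well. Of 8 tested (of 13 listed), 5 were higher and 2 lower in siBsx, with a median of 0.21. Gnb3, the β subunit of cone transducin, averaged 10587 in siBsx, against 21526 in siLhx4 and 25265 in siNT (-1.02 ± 0.048, log2, SE; adjusted p = 1.69e-97), and its γ partner Gngt2 was also lower (-0.45 ± 0.080). The α subunit Gnat2 averaged 7442 in siBsx, against 6938, 6748 and 7194 in the siLhx4 libraries and 10616, 9514 and 10839 in the siNT libraries, and its difference of 0.10 ± 0.065 did not pass (adjusted p = 0.319). Both knockdowns thus had Gnat2 below every siNT library. The potassium channel subunit Kcnv2 (1.05 ± 0.21), the channel subunit Cngb3 (0.75 ± 0.18), cone arrestin Arr3 (0.36 ± 0.11), Slc24a2 (0.22 ± 0.050) and Pde6c (0.20 ± 0.057) were higher. Left under the t distribution were 2 higher and 2 lower calls.

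Genes of the vesicle release machinery differed in both directions. Of 36 ribbon synapse and exocytosis genes tested (of 38 listed), 13 were higher and 6 lower, with a median of 0.10. Syt1, the calcium sensor of fast release, averaged 12424 in siBsx, against 6197 in siLhx4 and 11816 in siNT (1.00 ± 0.057, log2, SE; adjusted p = 1.91e-66). The complexin Cplx4 averaged 7974 in siBsx, against 3914 in siLhx4 and 6927 in siNT (1.03 ± 0.065). The secretogranin Scg3 averaged 25510.1 in siBsx, against 15062 in siLhx4 and 22966 in siNT (0.76 ± 0.045). These 3 were near or above siNT in siBsx and below it in siLhx4.

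The vesicle phosphoprotein Syn2 (0.59 ± 0.050, log2, SE) and the priming factor Unc13b (0.61 ± 0.060) were also higher. The complexin gene Cplx3 was lower, at 9838 in siBsx, 12329 in siLhx4 and 16135 in siNT (-0.33 ± 0.065), opposite in sign to Cplx4. The ribbon gene Ctbp2 (0.01 ± 0.051), the scaffold Bsn (-0.09 ± 0.047) and synaptophysin, Syp (0.03 ± 0.051), did not pass. The t distribution left 7 higher and 4 lower calls.

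All 3 genes for T-type calcium channels, which open at low voltage, were lower in siBsx. Cacna1h averaged 4685 in siBsx, against 12161 in siLhx4 and 11892 in siNT (-1.38 ± 0.055, log2, SE; adjusted p = 2.14e-133). Cacna1g averaged 1344 in siBsx, against 2956 in siLhx4 and 4140.1 in siNT (-1.14 ± 0.093). Cacna1i averaged 769 in siBsx, against 1418 in siLhx4 and 995 in siNT (-0.88 ± 0.097). The siLhx4 level was near siNT for Cacna1h, below it for Cacna1g and above it for Cacna1i. Of 16 calcium channel genes tested (of 22 listed), 6 were lower and 1 higher, with a median of -0.26. Cacna1f, the L-type channel of photoreceptor synapses, was lower (-0.42 ± 0.086), while the L-type Cacna1d (0.03 ± 0.076) and Cacna1c (-0.16 ± 0.091) did not pass. The auxiliary subunit Cacna2d3 was higher (0.48 ± 0.13). Under the t distribution, 4 lower calls and no higher call remained.

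Calcium-binding proteins of the EF-hand family were also mostly lower where they differed. Of 21 tested (of 29 listed), 7 were lower and 1 higher in siBsx, with a median of -0.21. Cabp1, a modulator of calcium channels, averaged 2722 in siBsx, against 5607 in siLhx4 and 8423 in siNT (-1.04 ± 0.066, log2, SE; adjusted p = 3.84e-53). Cabp7 averaged 239 in siBsx, against 656 in siLhx4 and 199 in siNT (-1.46 ± 0.15). The large negative difference thus stood with a low siBsx level of Cabp1 and with a high siLhx4 level of Cabp7. S100a10 (-0.64 ± 0.11), S100a6 (-0.87 ± 0.17) and calbindin, Calb1 (-0.30 ± 0.084), were lower. Left under the t distribution were 4 lower calls.

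Potassium channels were divided evenly, with 4 higher and 4 lower of 26 tested (of 51 listed) and a median of -0.12. Besides Kcnh6 and Kcnv2, the calcium-activated channel Kcnma1 averaged 1934 in siBsx, against 1126 in siLhx4 and 1815 in siNT (0.78 ± 0.11, log2, SE), and the leak channel Kcnk1 was higher (0.84 ± 0.14). Kcnh1, a relative of Kcnh6, was lower, at 492 in siBsx, 943 in siLhx4 and 1007 in siNT (-0.94 ± 0.10). Of the leak channels, Kcnk10 (-1.24 ± 0.25) and Kcnk2 (-0.88 ± 0.26) were lower, and so was Kcnq5 (-0.71 ± 0.23). The t distribution left 4 higher and 2 lower calls.

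Adhesion and guidance genes differed in both directions. Of 10 non-clustered protocadherins tested (of 12 listed), 4 were higher and none lower in siBsx, with a median of 0.35. Pcdh17 averaged 921 in siBsx, against 580.5 in siLhx4 and 311 in siNT (0.67 ± 0.13, log2, SE), and Pcdh15, a cadherin of sensory cell tip links, averaged 724, 476 and 353 in the same order (0.60 ± 0.15). Pcdh8 (0.72 ± 0.23) and Pcdh12 (0.98 ± 0.33) were called at lower counts, and 1 of the 4 calls remained under the t distribution. Pcdh19 averaged 149.8 in siBsx, against 115 in siLhx4 and 40.8 in siNT, and its difference between the knockdowns did not pass (0.38 ± 0.25; adjusted p = 0.313).

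Of 14 classical cadherins and catenins tested (of 24 listed), 3 were higher and 4 lower, with a median of -0.15. N-cadherin (Cdh2) averaged 18489 in siBsx, against 11109 in siLhx4 and 14076 in siNT (0.74 ± 0.049, log2, SE; adjusted p = 1.39e-47). Cdh9 averaged 115 in siBsx, against 38.3 in siLhx4 and 132 in siNT (1.58 ± 0.33). Cdh22 (-0.70 ± 0.087), Cdh6 (-0.80 ± 0.17), Cdh11 (-0.48 ± 0.089) and the catenin Ctnnd1 (-0.27 ± 0.054) were lower. Under the t distribution, 2 higher and 4 lower calls remained.

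Of 54 axon guidance genes tested (of 66 listed), 9 were higher and 16 lower in siBsx, with a median of -0.15. The Slit pathway held the largest differences upward: besides the receptor Robo2, its ligand Slit3 averaged 219.9 in siBsx, against 68.0 in siLhx4 and 170.3 in siNT (1.69 ± 0.24, log2, SE). A second receptor, Robo1, was lower (-0.62 ± 0.17), and the ligand Slit2 averaged 2104 in siBsx, against 2105 in siLhx4 and 2250.2 in siNT and did not pass (SE 0.073 on the log2 scale). The netrin receptor Unc5b averaged 987 in siBsx, against 2701 in siLhx4 and 1056 in siNT (-1.45 ± 0.083; adjusted p = 7.17e-66). Unc5b was high in siLhx4 and close to siNT in siBsx.

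The semaphorin Sema3a (0.54 ± 0.092, log2, SE), the ephrin Efna5 (0.53 ± 0.087) and the plexin Plxnb1 (0.31 ± 0.053) were higher. The netrin-related Ntng2 (-0.50 ± 0.062), the semaphorins Sema7a (-0.49 ± 0.066) and Sema3f (-0.51 ± 0.087), and the plexin Plxnb2 (-0.32 ± 0.044) were lower. Left under the t distribution were 11 of the 25 calls in this list. Among 10 neurotrophin and GDNF family genes tested (of 17 listed), the neurturin co-receptor Gfra2 averaged 213 in siBsx, against 63.3 in siLhx4 and 237 in siNT (1.76 ± 0.24). Neurturin itself (Nrtn) was lower (-0.74 ± 0.22), and the other 8 did not pass, with a list median of 0.17. The 2 calls among 10 genes are a share near the 22.7% over all tested genes, and that of Nrtn was lost under the t distribution (adjusted p = 0.109).

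Of 22 neurotransmitter receptor genes tested (of 56 listed), 2 were higher and 2 lower, with a median of 0.07. This is 18.2% of the list, against 22.7% of all tested genes, and the 1 higher and 1 lower calls left under the t distribution were those of Chrnb4 and Grin2c. The nicotinic subunit Chrnb4 averaged 26634 in siBsx, against 16488 in siLhx4 and 23447 in siNT (0.69 ± 0.055, log2, SE; adjusted p = 9.33e-34). Chrna3, which forms receptors with it, averaged 8264 in siBsx, against 8324 in siLhx4 and 7448 in siNT, and did not pass (-0.01 ± 0.071). The NMDA receptor subunit Grin2c was lower (-0.54 ± 0.058).

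In the pathway that carries the noradrenergic signal, several central components were higher in siBsx. Of 42 genes tested (of 45 listed), 11 were higher and 5 lower, with a median of 0.04. Prkar2b averaged 6035 in siBsx, against 1584 in siLhx4 and 4001 in siNT (1.93 ± 0.078, log2, SE; adjusted p = 5.07e-131). Gnas, the stimulatory G protein that couples β-adrenergic receptors to adenylyl cyclase, averaged 72222 in siBsx, against 39988 in siLhx4 and 60421 in siNT (0.85 ± 0.049). The α1B receptor Adra1b averaged 7875 in siBsx, against 5193 in siLhx4 and 5259 in siNT (0.60 ± 0.059). Adra1b thus had its highest mean in siBsx, whereas the β1 receptor Adrb1 averaged 8813 in siBsx, 9767 in siLhx4 and 9403 in siNT and did not pass (-0.15 ± 0.060; adjusted p = 0.0565).

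Of the phosphodiesterases that break down cyclic AMP, Pde4d averaged 5058 in siBsx, against 2695 in siLhx4 and 2896 in siNT (0.91 ± 0.069, log2, SE). Pde4b averaged 8463 in siBsx, against 5383 in siLhx4 and 9748 in siNT (0.65 ± 0.064). Pde8b (-0.56 ± 0.11) and Pde8a (-0.36 ± 0.11) were lower. Of the 14-3-3 genes, whose proteins bind and protect phosphorylated AANAT, Ywhah averaged 4760.3 in siBsx, against 6986 in siLhx4 and 3494 in siNT (-0.55 ± 0.056), and Ywhaq was lower as well (-0.31 ± 0.043). Ywhaz (0.04 ± 0.048) and Ywhae (-0.03 ± 0.042) did not pass. The t distribution left 8 higher and 3 lower calls.

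Among night-induced genes, of 28 tested (of 29 listed), 9 were higher and 6 lower in siBsx, with a median of 0.05. The copper transporter Atp7b averaged 23402 in siBsx, against 7923 in siLhx4 and 8489 in siNT (1.56 ± 0.075, log2, SE; adjusted p = 1.59e-94). The insulin signalling adaptor Irs2 (0.37 ± 0.044), the peptide transporter Slc15a1 (0.54 ± 0.10), the deiodinase Dio2 (0.98 ± 0.27) and the dopamine receptor Drd4 (0.42 ± 0.10) were higher. The kinase Sik1 averaged 12989 in siBsx, against 18031 in siLhx4 and 15548 in siNT (-0.47 ± 0.054). Id1 (-0.44 ± 0.057), the pentraxin Nptx1 (-0.39 ± 0.056) and the orphan nuclear receptor Nr4a1 (-0.27 ± 0.053) were lower, while the immediate early gene Fos was higher (0.34 ± 0.10). The cyclic AMP-responsive Crem averaged 2517 in siBsx, 2441 in siLhx4 and 2805 in siNT and did not pass (0.05 ± 0.095).

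Of 24 clock genes tested (all those listed), 1 was higher and 5 lower in siBsx, with a median of 0.02, so that the share called (25.0%) was near the 22.7% of all tested genes. The related repressors Bhlhe41 and Bhlhe40 differed in opposite directions. Bhlhe41 averaged 2115 in siBsx, against 1575 in siLhx4 and 1232 in siNT (0.42 ± 0.085, log2, SE), and Bhlhe40 averaged 3397 in siBsx, against 4495 in siLhx4 and 3272 in siNT (-0.40 ± 0.062). Rora (-0.38 ± 0.072), Tef (-0.36 ± 0.068), Clock (-0.15 ± 0.057) and Arntl2 (-0.53 ± 0.21) were lower. The core genes Per1, Per2, Cry1, Cry2, Arntl and Nr1d1 did not pass, with differences from -0.15 to 0.12. Under the t distribution, 6 higher and 4 lower night-induced calls and 1 higher and 3 lower clock calls remained.

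Among cholesterol synthesis genes, 2 were higher and 6 lower in siBsx of 23 tested (of 24 listed), with a median of -0.06. Hmgcs1, the synthase that makes HMG-CoA, averaged 3947 in siBsx, against 5845 in siLhx4 and 6214 in siNT (-0.57 ± 0.069, log2, SE; adjusted p = 9.99e-15), and Msmo1 (-0.36 ± 0.068) was lower too. The phosphomevalonate kinase Pmvk was higher, at 1710.3 in siBsx, 1254 in siLhx4 and 2240.4 in siNT (0.45 ± 0.080). Insig1, a brake on sterol regulation, stood at 7448 in siBsx, 6888 in siLhx4 and 10560.3 in siNT and did not pass (0.11 ± 0.054; adjusted p = 0.121). Left under the t distribution were 1 higher and 2 lower calls.

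Among stress and unfolded protein response genes, 8 were higher and 1 lower in siBsx of 24 tested (of 25 listed), with a median of 0.09. Xbp1, the spliced transcription factor of the unfolded protein response, averaged 2416 in siBsx, against 1394 in siLhx4 and 1612 in siNT (0.79 ± 0.074, log2, SE; adjusted p = 6.36e-25). Sesn2 (0.44 ± 0.072), the co-chaperone Dnajb1 (0.37 ± 0.063) and Asns (0.20 ± 0.060) were higher, and Ddit4 was lower (-0.27 ± 0.095). The t distribution left 3 of these 9 calls.

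Markers of cells other than pinealocytes were lower in siBsx wherever they were called, apart from Nefm and Snap25 of the neuronal list. Of 9 astrocyte markers tested, 6 were lower and none higher, with a median of -0.53. The connexin Gja1 averaged 355 in siBsx, against 849.7 in siLhx4 and 879 in siNT (-1.26 ± 0.11, log2, SE; adjusted p = 2.46e-26). Glutamine synthetase, Glul (-0.82 ± 0.087), apolipoprotein E, Apoe (-0.68 ± 0.088), vimentin, Vim (-0.65 ± 0.081), Sox9 (-0.53 ± 0.091) and Aldoc (-0.46 ± 0.098) were lower. Slc1a2, Slc1a3 and S100b (-0.22 ± 0.36) did not pass. Of the 9 tested, 1 had an estimate above 0, Slc1a2, whose log2 change from siNT was 0.155 in siBsx and 0.0675 in siLhx4. The defining astrocyte genes Gfap and Aqp4 had low counts and were untested, Gfap at 11.4 in siBsx, 8.76 in siLhx4 and 11.8 in siNT, and Aqp4 at 15.6, 8.68 and 6.35.

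Of 11 fibroblast markers tested, 7 were lower and none higher, with a median of -0.57. Col6a2 averaged 389.9 in siBsx, against 939 in siLhx4 and 479 in siNT (-1.27 ± 0.13, log2, SE). Col6a1 (-1.30 ± 0.17), the receptor Pdgfra (-1.23 ± 0.15), Col1a1 (-1.02 ± 0.27) and fibronectin, Fn1 (-0.49 ± 0.085), were lower as well. Decorin (Dcn) did not pass (-0.47 ± 0.42), and Lum, untested, was at 0 in siBsx and siNT and at 2.66 in siLhx4. Of 6 mural markers tested, 3 were lower, Myh11, Pdgfrb (-0.84 ± 0.15) and Cspg4 (-0.80 ± 0.28), with a median of -0.82. Of the other smooth muscle genes, Tagln did not pass (0.25 ± 0.29) and Acta2, at 13.7 in siBsx, 12.2 in siLhx4 and 15.3 in siNT, was untested.

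Of 6 endothelial markers tested (of 10 listed), Flt1 (-0.93 ± 0.26, log2, SE) and Plvap (-1.45 ± 0.43) were lower, with a median of -0.37. The 9 endothelial markers measured, tested or not, summed to 870.0 in siBsx, 1167 in siLhx4 and 856 in siNT. Of 8 Schwann cell and oligodendrocyte markers tested (of 11 listed), Pmp22 alone was called (-0.52 ± 0.16), with a median of 0.11. All 11 summed to 1747, 1962 and 1617 in the same order. None of 3 microglial markers tested (of 10 listed) was called, with a median of -0.09. All 10 summed to 441 in siBsx, 400 in siLhx4 and 417 in siNT. Of 6 neuronal markers (of 7 listed), Nefm (0.41 ± 0.13) and Snap25 (0.11 ± 0.042) were higher and Nefh (-0.75 ± 0.11) and Map2 (-0.21 ± 0.058) lower, with a median of -0.05. The 6 astrocyte calls, 4 fibroblast calls and 2 mural calls remained under the t distribution, as did 1 of the 4 neuronal calls, and no endothelial or Schwann call did.

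Genes induced by interferon were lower in siBsx without exception in their estimates: all 22 tested (of 27 listed) were below 0, with a median of -0.83, and 8 were called. Oasl averaged 2145 in siBsx, against 3849 in siLhx4 and 3054 in siNT (-0.84 ± 0.083, log2, SE; adjusted p = 2.00e-22). The transporter Tap1 averaged 294 in siBsx, against 528 in siLhx4 and 321 in siNT (-0.84 ± 0.18). Rsad2 averaged 334 in siBsx, against 594 in siLhx4 and 691 in siNT (-0.83 ± 0.18), and Irf1 was lower too (-0.40 ± 0.092). Tap1 and Irf1 stood highest in siLhx4, whereas Rsad2 stood highest in siNT.

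Many interferon genes had wide errors for their level. Irf7, at 801 in siBsx, 1281 in siLhx4 and 900.2 in siNT, had a difference of -0.68 ± 0.38 (log2, SE; adjusted p = 0.218), against a median SE of 0.117 over all tested genes. The authors' deposited tables give no p at all for 3 genes, Mx2, Oas1k and Usp18, which are all induced by interferon. Mx2 averaged 36.8 in siBsx, against 373 in siLhx4 and 32.3 in siNT. Usp18 averaged 125 in siBsx, against 418 in siLhx4 and 179 in siNT, and Oas1k 141 in siBsx, against 357 in siLhx4 and 151 in siNT. Whether a single library stood apart was not tested, and 3 of the 8 calls remained under the t distribution.

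Of 23 cell cycle genes tested (of 24 listed), 5 were lower and none higher in siBsx, with a median of -0.28, and the share called was 21.7%, near the 22.7% of all tested genes. Ccnd2, a G1 cyclin, averaged 5313 in siBsx, against 8737 in siLhx4 and 8447 in siNT (-0.72 ± 0.062, log2, SE; adjusted p = 7.88e-29). The proliferation marker Mki67 averaged 1926 in siBsx, against 2966 in siLhx4 and 1991 in siNT (-0.62 ± 0.095). Tyms (-0.76 ± 0.12), Top2a (-0.59 ± 0.12) and Ccna2 (-0.52 ± 0.18) were lower, while the replication genes Pcna (0.06 ± 0.068) and Mcm4 (0.05 ± 0.075) did not pass. Mki67 was near siNT in siBsx and above it in siLhx4, and Ccnd2 was near siNT in siLhx4 and below it in siBsx. Under the t distribution, 4 of the 5 calls remained.

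**Figure D5:**
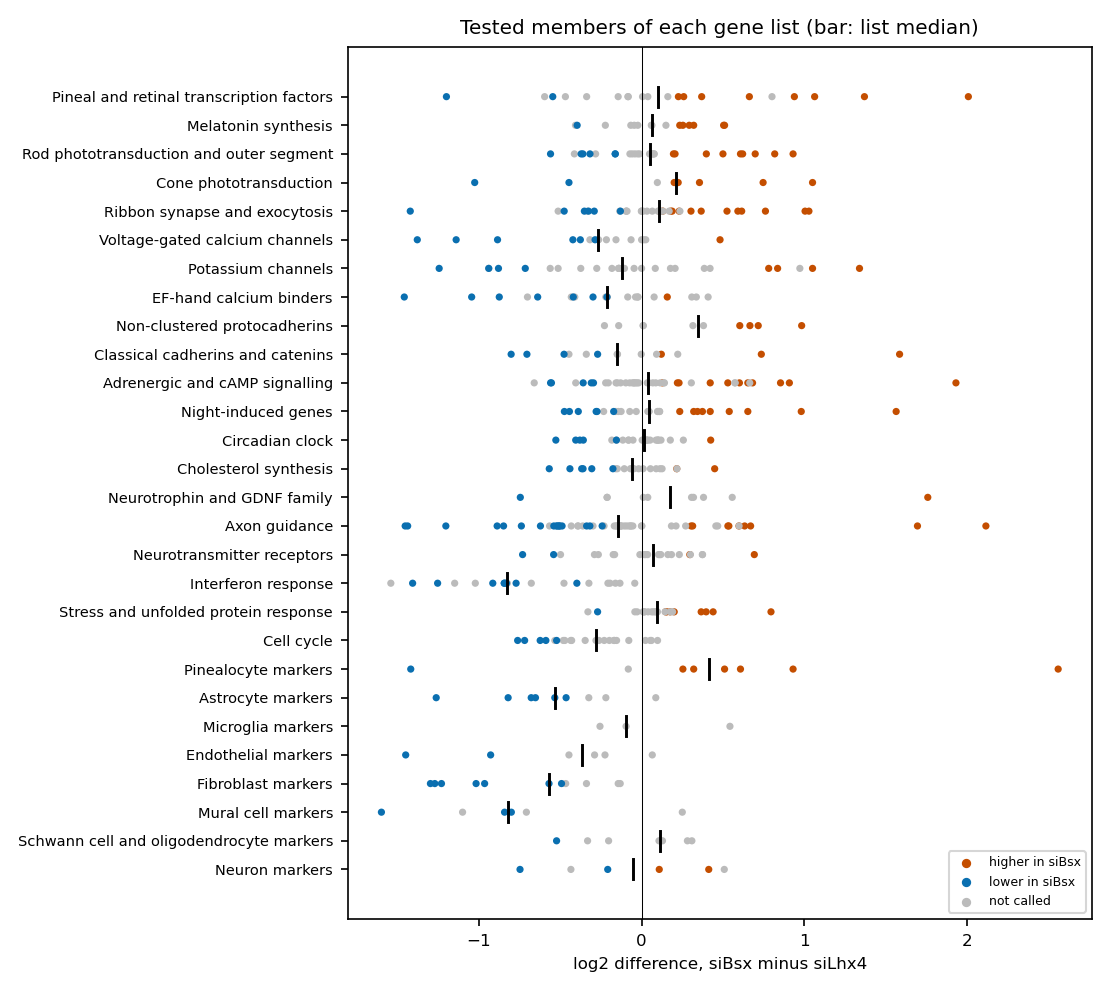
Log2 differences, siBsx minus siLhx4, of every tested member of 28 gene lists, colored where called (orange higher, blue lower in siBsx), with each list's median as a bar. The medians of the protocadherins (0.35) and pinealocyte markers (0.41) lie right of 0, and those of the mural (-0.82), interferon (-0.83), fibroblast (-0.57) and astrocyte (-0.53) lists lie left of it.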

How the data were processed

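RNA of 9 pinealocyte libraries was sequenced, 3 each with siBsx, siLhx4 and siNT. The build rn6, STAR 2.5.4a and bcl2fastq 2.20.0.422 are named in the submitters' processing notes, together with DESeq2 1.16.1, featureCounts and Subread 1.5.2, which the authors used. Annotation, strand setting and treatment of multi-mapping reads are not given in the sources used here. Values of similar paralogs (OAS, calmodulin, Hspa1a and Hspa1b) and of overlapping genes are therefore uncertain.

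The authors deposited a table of 26854 genes for each knockdown against siNT. Its signal column holds the authors' mean normalized counts over both groups, and its log2 columns hold the authors' DESeq2 fold changes and, in the siBsx table, standard errors. The score in the deposited siBsx table is the Wald statistic, and the deposited p-values are unadjusted and adjusted. For 14 genes, normalized counts of single siLhx4 and siNT libraries (signal) were also deposited. The 14876 genes with an adjusted p-value in both tables were tested.

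Group means were computed from each mean and fold change. The siNT means implied by the siBsx and siLhx4 tables had ratios from 0.988 to 1.01. A dispersion per gene was solved from the siBsx standard error, the standard error of siBsx minus siLhx4 was rebuilt from it, and a two-sided Wald test with a normal reference and Benjamini-Hochberg adjustment over all tested genes was applied (Python 3.11.15, scipy 1.17.1). Standard errors built in the same way for siLhx4 against siNT had a median ratio of 1.01 to those implied by the deposited p-values. The median standard error was 0.455 on the log2 scale for genes with a mean under 50 normalized counts and 0.0716 above 1000. The code was checked on simulated data whose standard errors followed the same formula. That check cannot show whether the normal reference suits 3 libraries per group. Counts of reads per library for all genes were not available for a count model here, and single siBsx libraries were not analysed here. The errors and p-values of the 14 genes with values per library also came from the rebuilt Wald test, not from the spread of the single values. Library totals were not used here.

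The knockdowns compared and the gene lists were chosen with earlier results of these data known. Named genes were the targets, the 10 largest called differences in each direction (symbols only, mean 50 or more), the 5 smallest p-values after those, the 5 largest with siNT between the knockdowns by at least 0.5 (log2), up to 4 called members of each list in each direction with defining members, and the 14 genes with values per library. Not every gene that this rule allows is named, some are not reported here, and a few list members that did not pass were added for contrast after their values were seen. Alternatives were another dispersion, t references, other filters, centring, summed squared standard errors and leaving out each siLhx4 library.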

Additional observations from a re-analysis of the deposited data

How the results depend on the processing

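The 3380 calls between siBsx and siLhx4 became 1307 (620 higher, 687 lower in siBsx) under a t distribution with 6 degrees of freedom, 291 (156 higher, 135 lower) with 4, 1645 (762 higher, 883 lower) when the squared standard errors of both tables were summed as if siNT were not shared, and 237 (85 higher, 152 lower) when differences of at least 1 on the log2 scale were required. Each of these settings is stricter by construction. The siLhx4 dispersion gave 3439 calls, a mean of at least 50 gave 3403, no filter on low counts gave 3011 and centring on the median gave 3387. Of these settings, the siLhx4 dispersion could hardly move the count. Standard errors built from the siBsx dispersion for siLhx4 against siNT were 1 to 1.04 times those implied by the deposited p-values. No estimate of a named or listed gene changed sign under the alternatives run. Of 522 named or listed genes, 87 calls were lost with 6 degrees of freedom, 169 with 4, 76 with summed squared standard errors and 18 without a filter. Among the 14 genes with values per library, leaving out 1 siLhx4 library at a time ended the call of Calm3 (0.13 and 0.15 on the log2 scale without replicates 3 and 1) and of Grk1 (-0.14 and -0.16 without replicates 2 and 3), and no other call. No paired analysis was possible because single siBsx libraries were not analysed here. Precision was limited by 3 libraries per group and, for genes with a mean under 50, by low counts.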

Other observations

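Genes that lie next to each other in the RefSeq order were read side by side, as a description chosen after the values were seen. In 5 of 7765 neighbouring pairs with both genes tested, both were called between siBsx and siLhx4 and differed at least 2-fold. Of single tested genes, 0.571% were called higher and 1.02% lower by at least 2-fold. Besides Gjd2 and Actc1 (2.46 and 2.33 on the log2 scale), these were Rax and the complexin gene Cplx4 (1.06 and 1.03), the tryptase gene Tpsg1 and the T-type calcium channel gene Cacna1h (-1.62 and -1.38), the collagen genes Col6a1 and Col6a2 (-1.30 and -1.27), and the nucleotide receptor genes P2ry6 and P2ry2 (-1.29 and -1.17). Whether reads were shared between the members of a pair was not tested.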
